A study of Mus musculus with 5 samples.

Results

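The 33 genes described here encode the contractile apparatus of smooth muscle and the proteins that switch it on and off. They were chosen by symbol, and all 33 were found among the 51912 genes listed for each library and passed the filter on low counts, as did 18590 genes in all. Per the labels, the libraries hold total RNA of dorsolateral prostate, from male mice aged 3 months. Both Ghr deletion mice carried Ghr flox/flox with ROSA26Cre-ERT2+/0, an inducible Cre recombinase expressed from a broadly active locus and therefore not restricted to muscle or to epithelium. The 3 control mice carried Ghr flox/flox without Cre. All 5 mice received 250 mg/kg tamoxifen on each of 5 days and were dissected 1 month after dosing ended, so loss of the receptor and the presence of Cre cannot be told apart. Per the labels, each sample is a biological replicate.

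The comparison asks how prostate transcripts differ once the gene for the growth hormone receptor, Ghr, has been deleted. Depth was 31740687 and 32782683 expected counts in Ghr deletion replicates 1 and 2, against 19517831 to 41553558 in the controls. Levels across libraries are given as CPM, counts scaled to the same total in each library after its size was adjusted by the trimmed mean of M values (TMM), and levels across genes as TPM, which is also divided by transcript length. Ghr, counted over the whole gene, had 21.5 and 10.2 CPM in Ghr deletion replicates 1 and 2, against 10.1, 11.8 and 13.2 CPM in control replicates 1 to 3, and did not check the labels, since the deleted part was not counted separately. The names of the libraries and of the tissue follow the labels throughout. Control replicates 1 and 2 were above the other 3 libraries in 6 of 8 transcripts of the neighbouring seminal vesicle; Svs2 and Pate4 were instead lowest in control replicate 2, and its summed share of the 8 (15.4% of counts) was within the range of the other libraries. Svs1 had 0.0454 and 7.90 CPM in libraries labelled Ghr deletion, against 32915, 22520 and 58.6 CPM in control replicates 1 to 3, so values are also given with control replicates 1 and 2 left out. The 8 transcripts took between 14.6% (Ghr deletion replicate 1) and 37.5% (control replicate 1) of counts. Pbsn, a prostate secretory gene, had 0.0454 and 8.76 CPM in Ghr deletion replicates 1 and 2. In control replicates 1 to 3 it had 11.1, 475 and 0.816 CPM. Whether the muscle transcripts came from prostate or seminal vesicle was not tested.

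Smooth muscle contracts when calcium, entering through L-type channels or released from internal stores, activates myosin light chain kinase through calmodulin. The phosphorylated light chain lets myosin pull on actin filaments that are anchored at dense bodies and dense plaques, and myosin phosphatase and the cyclic GMP-dependent kinase reverse the process. In the prostate, smooth muscle surrounds the ducts and expels secretion, mainly under noradrenaline acting on alpha-1 receptors. Most of the genes for these proteins are switched on by serum response factor with its coactivator myocardin at a short element called the CArG box.

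Across the 33 genes, 0 were called higher and 0 lower in the libraries labelled Ghr deletion by edgeR's quasi-likelihood test (adjusted p under 0.05), against a background of 0% of all genes in either direction. None of the 33 had an unadjusted p under 0.05, against 1.16% of all genes on the higher side and 3.1% on the lower side. DESeq2 called 0 of the 33, against 0.102% of all genes higher and 0.3% lower, and 1 of the 33 had an unadjusted DESeq2 p under 0.05, against 1.02% higher and 3.42% lower. With limma-voom 0 were called. The fitted log2 fold change of Ghr deletion over control was above 0 for 28 of the 33 genes, against 49.4% of all genes, and its median was 0.28, against -0.01 over all genes. In 20 of the 33 genes both libraries labelled Ghr deletion lay inside the range of the 3 controls, against 37.8% of all genes. The median changed in size and in sign with the choice of controls.

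**Figure D1:**
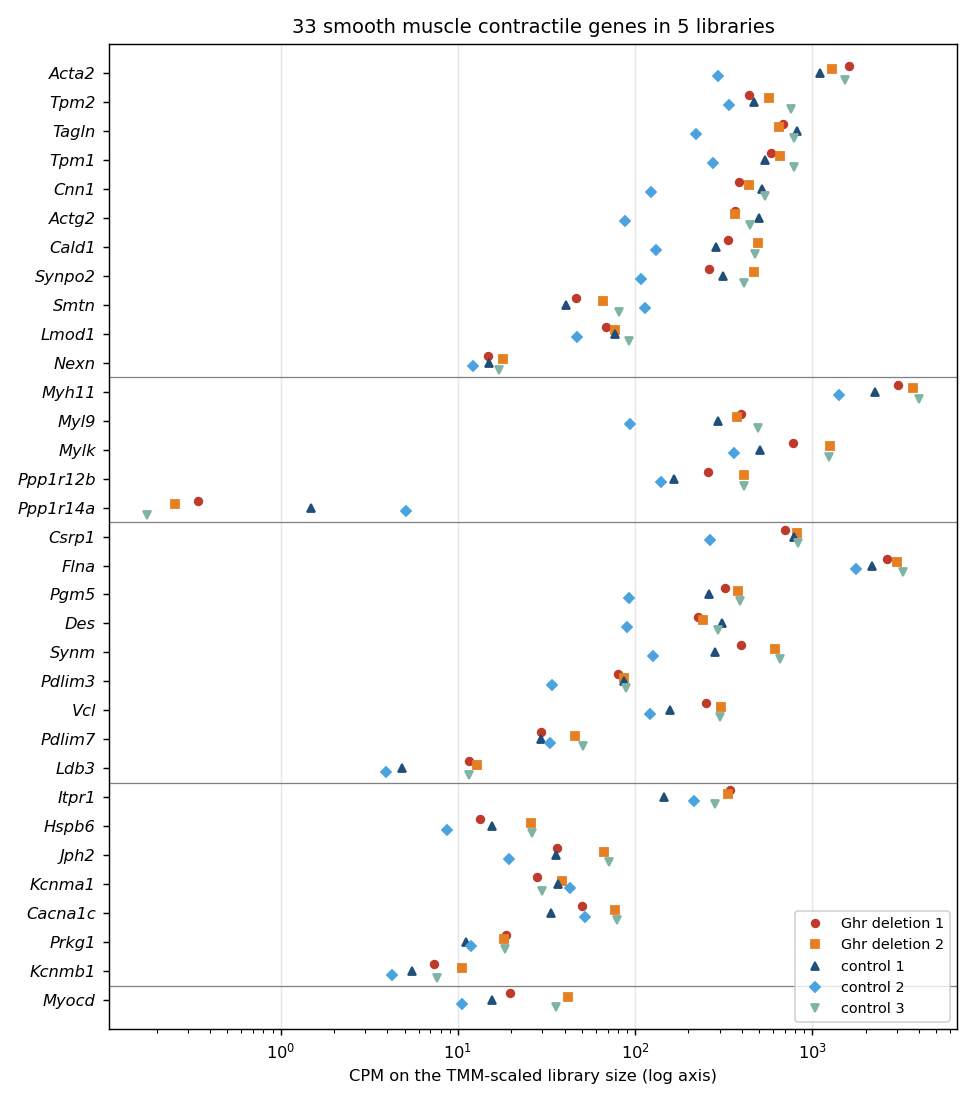
CPM of the 33 genes (log axis) in each library, with genes grouped by role and ordered by mean TPM within a role. Control replicate 2 holds the lowest point of most filament genes. The median log2 ratio of the 33 genes to control replicate 3 is -0.39 in Ghr deletion replicate 1 and -0.04 in replicate 2. To control replicate 1 it is 0.19 and 0.58.

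The defining genes of smooth muscle, Acta2, Myh11, Tagln and Cnn1, were detected in every library, none of them under 123 CPM. The 33 genes together made up 2.00% and 2.05% of counts in Ghr deletion replicates 1 and 2, against 1.02%, 0.436% and 2.02% in control replicates 1 to 3. Summed over the genes this was 14425 and 16959 CPM in libraries labelled Ghr deletion, against 12298, 6660.3 and 18499 CPM in the controls. Both libraries labelled Ghr deletion therefore lay between control replicates 1 and 3. In bulk tissue, fewer muscle cells and less RNA per muscle cell cannot be told apart.

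Control replicate 2 was the lowest library for 26 of the 33 genes (78.8%), against 33.5% of all genes tested, and control replicate 3 was the highest for 16 (48.5%), against 13.0% of all genes. Relative to control replicate 2, the median of the 33 genes was higher by 1.04 and 1.43 on the log2 scale in Ghr deletion replicates 1 and 2, by 0.68 in control replicate 1 and by 1.55 in control replicate 3. The difference between control replicates was thus as large as any difference from a Ghr deletion library. The highest control was a median of 2.95 times the lowest control, while the higher Ghr deletion library was a median of 1.22 times the other, against 1.72 and 1.19 over the 18019 tested genes with counts in every library. A range over 3 libraries is wider than one over 2 by construction.

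The fitted values of the group depended on which controls were in the fit. Without control replicate 2 the median log2 fold change was 0.01, with 18 of 33 genes above 0. Without control replicate 3 it was 0.67, with 30 of 33 above 0. In that fit 10 genes had an unadjusted p under 0.05, all but Ppp1r14a on the higher side, against a background of 5.91% higher and 7.34% lower. Of the 33 genes, 0 passed the adjusted threshold (background 0.082% higher and 0.18% lower). With control replicates 1 and 2 both left out the median was -0.24, with 5 of 33 above 0, and that fit holds 1 control, which is assumed to vary like the other group. Leaving out Ghr deletion replicate 1 gave a median of 0.39, and leaving out replicate 2 gave 0.13.

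**Figure D2:**
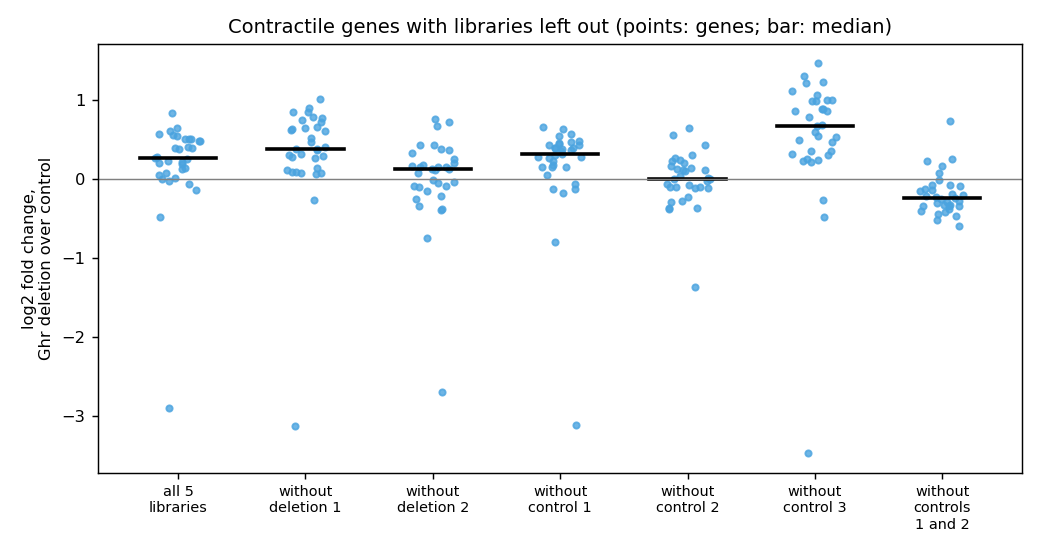
Fitted log2 fold changes of the 33 genes (points) and their median (bar) with all 5 libraries and with libraries left out. The median is 0.28 with all libraries, 0.67 without control replicate 3 and -0.24 without control replicates 1 and 2; the lowest point in the first 6 columns is Ppp1r14a.

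Markers of other cell types differed between the same libraries. The 10 fibroblast markers summed to 3959 and 1855 CPM in libraries labelled Ghr deletion, against 2611, 1316 and 3163 CPM in control replicates 1 to 3. The 7 basal epithelial markers summed to 392 and 573 CPM in libraries labelled Ghr deletion, against 423, 1041 and 493 CPM in the controls, and the 10 luminal markers to 1041 and 804 CPM, against 1037, 1499 and 886 CPM. Control replicate 2 was the lowest library for 7 of the 10 fibroblast markers. It was the highest for 5 of the 10 luminal and 4 of the 7 basal markers, and the sums were led by few genes. Pbsn, a prostate secretory gene, had 0.0454 and 8.76 CPM in libraries labelled Ghr deletion, against 11.1, 475 and 0.816 CPM in the controls, and Msmb had 0.00 and 0.429 CPM, against 11.1, 112 and 0.0441 CPM. Among basal markers Dst, which is also made outside basal cells, had 285 and 483 CPM, against 309, 921 and 385 CPM. The general luminal genes Epcam and Krt18 were lowest in control replicate 2, at 93.1 and 224 CPM, so the epithelial markers did not move as one. The part of this in the muscle values was not tested.

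**Figure D3:**
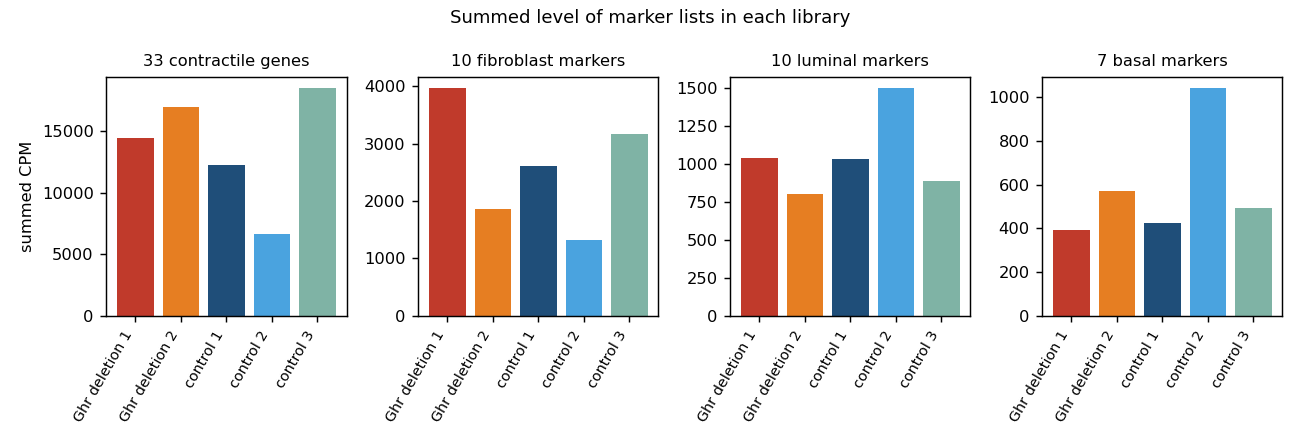
Summed CPM of the 33 contractile genes and of 3 marker lists in each library, each panel with its own axis starting at 0. Control replicate 2 has the shortest bar for contractile genes (6660.3 CPM) and fibroblast markers and the tallest for luminal and basal markers. Dst holds 921 of the 1041 CPM of its basal bar, and its luminal bar is the tallest through Pbsn and Msmb.

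The 12 vascular mural markers, which identify pericytes and vessel-wall muscle, summed to 307 and 208 CPM in libraries labelled Ghr deletion, against 187, 167 and 251 CPM in the controls, and of these 0 passed by edgeR (0 at an unadjusted p under 0.05). The 12 skeletal muscle markers summed to 289 and 229 CPM in libraries labelled Ghr deletion, against 288, 172 and 407 CPM in the controls, and the list was uneven. Myod1 had 0 counts in every library, Myog was at or under 0.0221 CPM, and Myh1, Myh2 and Myh4 were each at or under 1.95 CPM. Most of the sum came from Acta1, Neb and Tnnc2. The skeletal actin gene Acta1 had 97.8 and 132 CPM in libraries labelled Ghr deletion, against 159, 82.6 and 315 CPM in the controls. Neb, nebulin, had 165 and 48.3 CPM, against 108, 76.3 and 29.3 CPM, Tnnc2 had 20.7 and 36.9 CPM, against 13.0, 4.68 and 48.6 CPM, and Ckm reached 12.5 CPM in control replicate 3. The part of skeletal muscle in the contractile values was not tested. The 8 endothelial markers summed to 145 and 98.1 CPM in libraries labelled Ghr deletion, against 121, 89.6 and 108 CPM in the controls.

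Myocd, which encodes the coactivator myocardin, had a mean of 6.86 TPM over the 5 libraries and ranked 27 of 33 by that measure. It had 19.6 and 42.0 CPM in Ghr deletion replicates 1 and 2, against 15.7, 10.6 and 35.9 CPM in control replicates 1 to 3, with a log2 fold change of 0.57 (SE 0.58; edgeR adjusted p = 0.878). The higher Ghr deletion library was 2.14 times the other, the highest control was 3.39 times the lowest, and the groups overlapped. Srf, which encodes its DNA-binding partner, had 17.5 and 18.8 CPM, against 15.6, 17.5 and 24.2 CPM.

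The 250 bases before each RefSeq start were searched for the CArG box in the RefSeq promoter table (GRCm38.p6), where 27 of the 33 genes have an entry. A RefSeq start need not be the outermost start of the GENCODE gene: that of Acta2 lies 217 bases and that of Myl9 44 bases inside it, so part of these windows is within the annotated gene. Actg2, Itpr1, Myh11, Myocd, Nexn and Tagln have none there. The element has the same form on both strands, so one search covers both. An exact match lay before 3 genes, Myl9, Vcl and Ldb3 (11.1% of 27), against 1.62% of 27025 genes. With 1 of the central A or T bases allowed to differ, a match lay before 9 of the 27 genes (33.3%), against 9.78% of all genes, and Acta2 had 2 such matches. A match describes letters only, and binding was not measured. The 4 stretches are shown because they stand before the most abundant gene of the group (Acta2), the light chain gene Myl9, the plaque gene Vcl and the Z-line gene Ldb3, with matches in capitals. Acta2 is read from chr19:34255374-34255623 on the minus strand, with matches starting 84 and 34 bases before the start. Myl9 is read from chr2:156775214-156775463 on the plus strand, with an exact match at 161 and one with a differing base at 99 bases before the start. Vcl is read from chr14:20929148-20929397 on the plus strand, with its match at 227 bases, and Ldb3 from chr14:34588682-34588931 on the minus strand, with its match at 35 bases.
Acta2: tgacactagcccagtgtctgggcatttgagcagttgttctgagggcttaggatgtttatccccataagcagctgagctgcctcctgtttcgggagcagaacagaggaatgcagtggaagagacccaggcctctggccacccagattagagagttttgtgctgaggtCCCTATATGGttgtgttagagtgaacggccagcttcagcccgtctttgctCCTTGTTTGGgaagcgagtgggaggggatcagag
Myl9: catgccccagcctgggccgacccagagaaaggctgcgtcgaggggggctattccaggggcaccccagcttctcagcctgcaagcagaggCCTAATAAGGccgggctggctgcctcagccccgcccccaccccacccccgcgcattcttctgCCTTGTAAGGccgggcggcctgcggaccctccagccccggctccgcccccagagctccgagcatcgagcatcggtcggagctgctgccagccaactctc
Vcl: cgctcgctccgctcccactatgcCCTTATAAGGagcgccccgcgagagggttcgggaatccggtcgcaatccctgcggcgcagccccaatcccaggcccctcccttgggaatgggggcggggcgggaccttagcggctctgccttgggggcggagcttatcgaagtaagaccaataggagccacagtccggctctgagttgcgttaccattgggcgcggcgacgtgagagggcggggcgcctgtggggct
Ldb3: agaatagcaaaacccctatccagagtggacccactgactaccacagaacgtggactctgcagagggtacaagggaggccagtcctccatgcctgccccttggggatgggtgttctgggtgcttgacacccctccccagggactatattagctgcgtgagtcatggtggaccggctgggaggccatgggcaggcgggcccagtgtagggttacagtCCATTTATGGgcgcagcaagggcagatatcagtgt
Control replicate 2 was the lowest library for 8 of the 9 genes with a match, all but Cacna1c, and for 13 of the 18 genes with a window and no match, and this difference was not tested. Acta2 and Myl9 were 5.23 and 5.24 times higher in the highest than in the lowest control, Ldb3 2.92 times and Vcl 2.48 times.

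**Figure D4:**
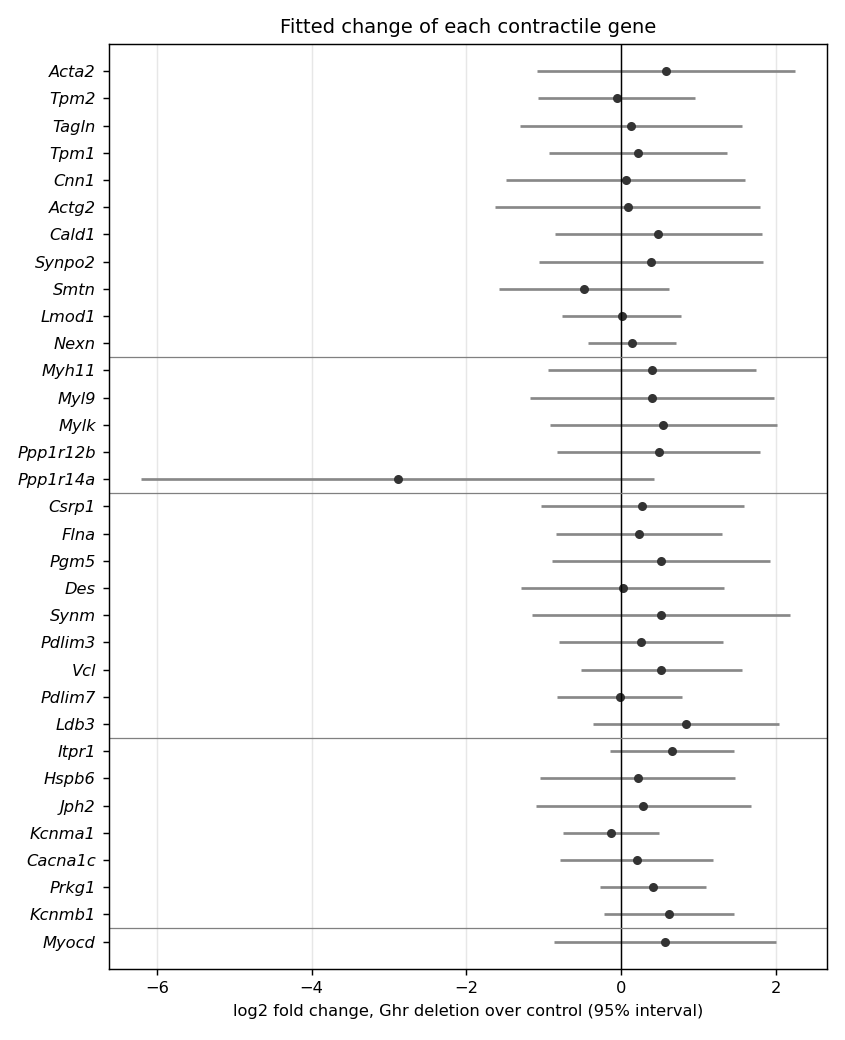
Fitted log2 fold change of Ghr deletion over control for each of the 33 genes, with its 95% interval, grouped by role. Every interval includes 0; Ppp1r14a has the widest.

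The 11 genes of the actin-containing thin filament had fitted log2 fold changes from -0.48 to 0.57, with a median of 0.12, 9 above 0 and 0 called. Acta2, smooth muscle alpha-actin, was the most abundant of the 33 per length. The gene lies at chr19:34241090-34255590 on the minus strand (GRCm38). It had 1166 and 693 TPM in Ghr deletion replicates 1 and 2, against 283, 33.7 and 574 TPM in control replicates 1 to 3. As CPM it was 1614 and 1297, against 1100.4, 294 and 1537 (log2 fold change 0.57 with SE 0.68; edgeR adjusted p = 0.883). The libraries labelled Ghr deletion lay on either side of control replicate 3, and control replicate 2 stood lowest. The deposited TPM values are not rescaled between libraries, and on the log2(TPM + 1) scale the median log2 fold change over all genes was 0.87, so differences between groups are read from CPM.

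Actg2, the gamma-actin of visceral muscle, had 365 and 366 CPM in libraries labelled Ghr deletion, against 498, 88.0 and 447 CPM in the controls (log2 fold change 0.09, SE 0.69). Both libraries labelled Ghr deletion lay between control replicates 2 and 3. Within a library, the ratio of Actg2 to Acta2 in TPM does not depend on scaling. It was 0.320 and 0.400 in Ghr deletion replicates 1 and 2, against 0.638, 0.419 and 0.412 in control replicates 1 to 3. The libraries labelled Ghr deletion were lower than every control, with a difference in mean log2 ratio of -0.42 (-1.48 ± 0.23, SD, n = 2, against -1.06 ± 0.36, SD, n = 3). An exact two-sided permutation test over samples gave p = 0.2, which is the smallest this design allows. The difference was -0.22 without control replicate 1. Acta2 and Actg2 transcripts match that of Acta1 at 85.6% over 1135 bases and 85.3% over 1125 bases. Only reads that align to both genes are shared out by the counting model, and their number was not measured.

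Tagln, which encodes the actin-bundling transgelin, had 680.2 and 649 CPM in libraries labelled Ghr deletion, against 819, 219.8 and 789.9 CPM in the controls. Antisense gene Gm48529 covers 62.4% of its exonic bases, and the strand setting of the counting is not given in the sources used here, so this value is uncertain. Cnn1, calponin, which restrains myosin on actin, had 384 and 437 CPM, against 519, 123 and 540.2 CPM. For both genes the libraries labelled Ghr deletion lay below control replicates 1 and 3 and above control replicate 2, and the log2 fold changes were 0.12 (SE 0.58) and 0.06 (SE 0.63).

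The tropomyosins, which lie along the actin filament, were less uneven. Tpm1 had 588 and 657 CPM in libraries labelled Ghr deletion, against 542, 274 and 789 CPM in the controls (log2 fold change 0.22, SE 0.47). Tpm2 had 438 and 566 CPM, against 471, 337 and 758 CPM (log2 fold change -0.06, SE 0.41). Per length Tpm2 was second to Acta2, with a mean of 343 TPM over the 5 libraries. Smtn, smoothelin, which binds actin in differentiated muscle, went against the other filament genes, with 46.7 and 66.0 CPM in libraries labelled Ghr deletion, against 41.0, 114 and 80.8 CPM in the controls, where control replicate 2 was the highest and not the lowest library (log2 fold change -0.48 with SE 0.45; edgeR adjusted p = 0.874). Opposite-strand gene Gm11946 covers 16.3% of its exonic bases. The other thin filament genes, the caldesmon gene Cald1, the filament nucleator gene Lmod1, Synpo2 and Nexn, had log2 fold changes from 0.00 to 0.48.

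Cald1 also differed in the length that the authors' RSEM tables give it, which is an average over its transcripts weighted by their estimated share. Its effective length was 3095 and 2939.8 bases in Ghr deletion replicates 1 and 2, against 2927, 1971 and 3021 bases in control replicates 1 to 3. Control replicate 2, the library with the lowest Cald1 level (130.4 CPM), thus had the shortest average transcript, and the other 4 libraries lay between 2927 and 3095 bases. Other thin filament genes went both ways. In control replicate 2 Cnn1, Smtn and Synpo2 had their longest values, at 1415, 2644.5 and 7115 bases. Tpm1 and Tagln had their shortest there, at 1316 and 1166 bases. Caldesmon is known in a long form of differentiated smooth muscle and a short form of other cells, and the 18 Cald1 transcripts in the tables run from 262 to 4777 bases in GENCODE. Levels of single transcripts were not analysed here. A ratio of the longest to the shortest effective length as large as that of Cald1 (1.57) was found in 10.7% of tested genes. Pdlim7 had a ratio of 1.61, with 2312 and 2572 bases in the libraries labelled Ghr deletion, against 2008, 1601 and 2079.7 bases in the controls. Both Ghr deletion values lay above every control, and the share of all genes whose lengths did so was not counted. Cald1 and Pdlim7, 2 of the 33 genes (6.06%), exceeded a ratio of 1.5, a level chosen after the values were seen, against 12.7% of all genes.

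**Figure D5:**
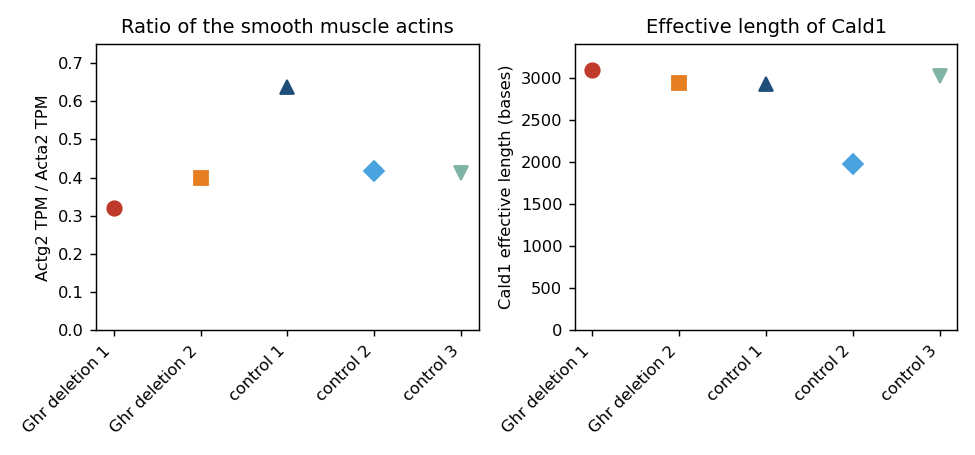
Left, Actg2 TPM divided by Acta2 TPM; right, effective length of Cald1 in bases; 1 point per library, both axes from 0. The ratio is 0.320 and 0.400 in the libraries labelled Ghr deletion and 0.412 or more in the controls, and the Cald1 length of control replicate 2 is 1971 bases while the others are 2927 or more.

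The 5 genes of myosin and its light chain control had a median log2 fold change of 0.40, with 4 above 0 and 0 called. Myh11, the smooth muscle myosin heavy chain, had 3044 and 3693 CPM in libraries labelled Ghr deletion, against 2260.0, 1415 and 3989.9 CPM in the controls (log2 fold change 0.40 with SE 0.55; edgeR adjusted p = 0.892). Myl9, the regulatory light chain, had 395 and 378 CPM, against 292, 93.8 and 492 CPM (log2 fold change 0.40, SE 0.64). For both genes the libraries labelled Ghr deletion lay between control replicates 1 and 3. Myl9 matches Myl12b at 86.4% over 521 bases. Mylk, the kinase that phosphorylates the light chain, and Ppp1r12b, a targeting subunit of the phosphatase, had fitted values of 0.55 (SE 0.59) and 0.49 (SE 0.53) on the log2 scale.

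Ppp1r14a, which encodes the phosphatase inhibitor CPI-17, had the largest fitted difference of the group and the smallest p on the lower side. It had 0.340 and 0.252 CPM in libraries labelled Ghr deletion, against 1.48, 5.09 and 0.176 CPM in the controls, with a log2 fold change of -2.89 (SE 1.35, 95% confidence interval -6.20 to 0.42, adjusted p = 0.874 by edgeR). These rest on 15 and 10 counts in the libraries labelled Ghr deletion, against 24, 99 and 8 counts in the controls. Control replicate 3 was lower than both libraries labelled Ghr deletion, and control replicates 1 and 2 were the highest. The log2 fold change was -1.36 without control replicate 2 and 0.75 with control replicates 1 and 2 both left out.

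Of the 9 genes of intermediate filaments, dense plaques and LIM-domain proteins, which tie the filaments to each other and to the membrane, 8 had a log2 fold change above 0, with a median of 0.28 and 0 called. Csrp1, a LIM protein that stabilises actin bundles, had 697 and 822 CPM in libraries labelled Ghr deletion, against 788, 263 and 832 CPM in the controls. Flna, the actin cross-linker filamin A, had 2622 and 2999 CPM, against 2177, 1769.6 and 3259 CPM. Flna is also made by many other cell types, and its highest control was 1.84 times its lowest, against 3.16 times for Csrp1. Des, desmin, the muscle intermediate filament, had 226 and 243 CPM, against 309, 89.9 and 295 CPM, and its fitted log2 fold change was 0.02 (SE 0.53).

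Vcl, vinculin, which joins actin to integrin plaques, had 251 and 305 CPM in libraries labelled Ghr deletion, against 157, 122 and 303 CPM in the controls (log2 fold change 0.52 with SE 0.42; edgeR adjusted p = 0.874). Opposite-strand gene Ap3m1 covers 25.5% of its exonic bases, so its counts are uncertain without the strand setting. Ldb3, best known as a Z-line protein of striated muscle, had 11.6 and 12.7 CPM, against 4.81, 3.96 and 11.6 CPM (log2 fold change 0.83, SE 0.49, 95% confidence interval -0.37 to 2.04, adjusted p = 0.874 by edgeR). The libraries labelled Ghr deletion were higher than every control, but control replicate 3 was the same as Ghr deletion replicate 1 to 3 digits, and it is the other controls that were low. Ldb3 and Itpr1 were the only members whose groups did not overlap on the higher side (2 of 33, or 6.06%, against 10.8% of all genes), and 0 did so on the lower side, against 12.5%. Pdlim7, a LIM scaffold, had 29.3 and 45.8 CPM, against 29.6, 33.2 and 51.1 CPM, with a log2 fold change of -0.02 (SE 0.33). Pgm5, Synm and Pdlim3 had log2 fold changes of 0.51, 0.52 and 0.26.

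The 7 genes of calcium entry, calcium release, potassium channels and relaxation had a median log2 fold change of 0.29, with 6 above 0 and 0 called. They differed less between controls than the filament genes did, the highest control being a median of 1.94 times the lowest, against 3.63 times for the thin filament. Itpr1, the receptor that releases calcium from the sarcoplasmic reticulum, had 342 and 336 CPM in libraries labelled Ghr deletion, against 146, 215 and 284 CPM in the controls. The gene lies at chr6:108213096-108551109 (GRCm38). Both libraries labelled Ghr deletion exceeded every control (log2 fold change 0.66, SE 0.32, 95% confidence interval -0.14 to 1.45, adjusted p = 0.874 by edgeR). It kept this sign with each single library left out, with values from 0.44 to 0.90, and was 0.26 with control replicates 1 and 2 both left out.

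Kcnma1, the pore of the large-conductance potassium channel that limits contraction, and Kcnmb1, its smooth muscle subunit, had different profiles. Kcnmb1 had 7.31 and 10.5 CPM in libraries labelled Ghr deletion, against 5.49, 4.26 and 7.59 CPM in the controls (log2 fold change 0.62 with SE 0.34; edgeR adjusted p = 0.874). Kcnma1 had 27.8 and 38.7 CPM, against 36.5, 42.9 and 29.7 CPM (log2 fold change -0.13, SE 0.25), and control replicate 2 was its highest library while it was the lowest for Kcnmb1. Prkg1, the cyclic GMP-dependent kinase of relaxation, had 18.6 and 18.1 CPM, against 11.1, 11.9 and 18.5 CPM, and overlapped through control replicate 3 alone (log2 fold change 0.41, SE 0.28). Cacna1c, the pore of the L-type calcium channel, Jph2, which holds the membrane and the calcium store together, and Hspb6, a small heat shock protein of relaxation, had log2 fold changes of 0.20, 0.29 and 0.21.

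Genes that act with these proteins were read from 6 lists. By edgeR 0 genes of any of them passed at an adjusted p under 0.05, against 0% of all genes. An unadjusted p under 0.05 was reached by 1.16% of all genes on the higher side and 3.1% on the lower side. A log2 fold change above 0 was found in 49.4% of all genes. Of 24 filament and calcium-sensitisation partners, 15 had a log2 fold change above 0 (median 0.13), and 1 had an unadjusted p under 0.05, on the lower side. That gene, Dapk3, a kinase of the light chain, had 4.42 and 4.95 CPM in libraries labelled Ghr deletion, against 6.91, 12.6 and 6.84 CPM in the controls. The nonmuscle myosin heavy chains Myh10 and Myh9 went opposite ways. Myh10 had 67.4 and 64.9 CPM, against 46.4, 49.6 and 54.1 CPM (log2 fold change 0.40, SE 0.17). Myh9 had 244 and 231 CPM, against 329, 562 and 290.1 CPM, highest in control replicate 2, the library where Myh11 was lowest. Of 27 dense plaque and membrane genes, 20 were above 0 (median 0.26) and 0 had an unadjusted p under 0.05. Zyx was at -0.50 (SE 0.21), Itga7 at -0.63 (SE 0.28) and Sgcd at 0.73 (SE 0.38).

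Of 16 tested receptors for contractile agonists, 13 were above 0 (median 0.49), against 49.4% of all genes. On each side 1 had an unadjusted p under 0.05, against 1.16% of all genes higher and 3.1% lower. Oxtr, the oxytocin receptor, had 3.86 and 1.06 CPM in libraries labelled Ghr deletion, against 0.370, 0.514 and 0.926 CPM in the controls. Ptger3, a prostaglandin receptor, had 0.499 and 0.782 CPM, against 19.2, 8.07 and 0.684 CPM, so its high values were those of control replicates 1 and 2 alone. Adra1a, the alpha-1A receptor, named for its role after its values were seen, had 18.6 and 28.9 CPM, against 10.4, 5.45 and 26.7 CPM, with the controls in the same order as for Acta2 and Myh11.

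Of 28 calcium and ion channel genes, 17 were above 0 (median 0.16), against 49.4% of all genes. Cacna1g, a T-type calcium channel, was the only one with an unadjusted p under 0.05, on the lower side, against 3.1% of all genes. It had 7.42 and 5.55 CPM in libraries labelled Ghr deletion, against 12.1, 22.3 and 9.06 CPM in the controls. Of 17 tested nitric oxide and cyclic nucleotide genes, 9 were above 0 (median 0.10). On the higher side 1 had an unadjusted p under 0.05, against 1.16% of all genes. That gene, Gucy1a1, a subunit of the nitric oxide receptor, had 26.5 and 27.2 CPM, against 15.6, 15.4 and 22.1 CPM, both libraries labelled Ghr deletion exceeding every control (log2 fold change 0.60 with SE 0.23; edgeR adjusted p = 0.874). In this list the groups did not overlap for 2 genes on the higher side and 1 on the lower side. Over all genes the shares were 10.8% and 12.5%. Of 20 tested transcription factors and coactivators of muscle, 8 were above 0 (median -0.07). Mef2c at 0.81 (SE 0.32) and Tbx3 at -0.86 (SE 0.35) were past an unadjusted p of 0.05, against 1.16% of all genes higher and 3.1% lower.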

How the data were processed

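RNA of flash-frozen dorsolateral prostate was sequenced as total RNA with a strand-keeping kit, per the labels' protocols. Per the submitters' processing notes, bcl2fastq 2.20.422, STAR 2.5.3a and RSEM 1.3.0 were used with GRCm38; which gene annotation and strand option they ran with is not given in the sources used here. Each deposited gene table holds RSEM's expected counts, TPM and effective lengths, per the file headers. Of the gene IDs, 99.5% matched a symbol.

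The expected counts, rounded, were filtered by edgeR's filterByExpr with the groups, scaled by TMM and tested with edgeR 4.0.16's quasi-likelihood test (R 4.3.3) over all 18590 genes that passed, with Benjamini-Hochberg adjustment at 0.05. DESeq2 1.42.0, limma 3.58.1, other scalings and filters, and left-out libraries were alternatives. The edgeR p-values set the difference between groups against the spread within groups, which is estimated partly over all genes. They cover these 5 mice only, and the biological coefficient of variation was 42.7%. Similar transcripts were found with BLAST 2.17.0.

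The 33 genes and the other lists were chosen with earlier results of these data known. Genes described singly were the 10 highest by mean TPM, Myocd, the 5 with the smallest p in each direction, and in the other lists those with the smallest p. Des, Srf, Adra1a, the single markers and the effective lengths of Cald1, Pdlim7 and other genes fall outside this rule and were chosen after their values were seen.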

Additional observations from a re-analysis of the deposited data

How the results depend on the processing

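By edgeR 0 of 18590 genes were called with all 5 libraries (792 at an unadjusted p under 0.05), which limits what can be said of any single gene. The number called over all genes was 2 with no filter on low counts, 79 with DESeq2, 2294 on log2(TPM + 1) and 733 on log2(TPM + 0.1), and from 0 to 48 with single libraries left out, the 48 being without control replicate 3. On log2(TPM + 1) 2 of the 33 contractile genes were called, Kcnmb1 at 0.99 and Ldb3 at 1.17. The median of the 33 was 1.71 on log2(TPM + 1) and 1.87 on log2(TPM + 0.1), where all genes had medians of 0.87 and 1.33, and 0.76 with library size only, where all genes had 0.58. Single libraries left out moved this median between 0.01 and 0.67. The Actg2 to Acta2 difference lay between -0.58 and -0.22 with single libraries left out.

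The replicate numbers are shared by 2 pairs and are not stated to pair mice. Deviations from the group means correlated at 0.298 and 0.261 within the 2 numbers, over genes, and at -0.298 and -0.261 with the numbers crossed. The 2 libraries labelled Ghr deletion deviate from their mean by equal and opposite amounts, so the crossed values follow by construction. These correlations cannot decide whether mice were paired. With the replicate number as a block, 1126 genes were called, 2 of them contractile genes (Ppp1r14a at -3.22 and Ldb3 at 1.48), the median was 0.73, and Tpm2 (0.32) and Pdlim7 (0.22) changed sign. Control replicate 3 has no partner in that fit, so the spread behind its calls comes from the 2 pairs alone.

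Signs changed for Pdlim7 with upper-quartile factors (0.0081) and no filter (0.0088), and for Tpm2 with limma-voom (0.043). Smtn, Tpm2, Pdlim7 and Kcnma1 were above 0 with library size only (0.14, 0.43, 0.49, 0.50), on log2(TPM + 1) (1.17, 1.503, 0.96, 1.12) and on log2(TPM + 0.1) (1.25, 1.51, 1.07, 1.31). With control replicates 1 and 2 both left out, 27 genes changed sign: Acta2 -0.075, Actg2 -0.29, Myh11 -0.24, Tagln -0.25, Cnn1 -0.39, Des -0.33, Mylk -0.27, Lmod1 -0.34, Synm -0.37, Myocd -0.22, Synpo2 -0.18, Myl9 -0.34, Tpm1 -0.34, Cald1 -0.19, Flna -0.21, Vcl -0.12, Pdlim3 -0.088, Csrp1 -0.13, Ppp1r12b -0.30, Ppp1r14a 0.75, Kcnma1 0.17, Cacna1c -0.32, Pgm5 -0.14, Jph2 -0.47, Prkg1 -0.0033, Hspb6 -0.42 and Nexn -0.065. With single libraries left out, 18 genes changed sign at least once, with ranges of -0.14 to 0.55 for Cacna1c, -0.37 to 0.35 for Cnn1, -0.37 to 0.28 for Des, -0.34 to 0.68 for Hspb6, -0.22 to 0.90 for Jph2, -0.38 to 0.086 for Kcnma1, -0.23 to 0.22 for Lmod1, -0.38 to 0.27 for Pdlim7, -0.29 to 0.31 for Tpm2, -0.37 to 0.45 for Actg2, -0.092 to 0.53 for Csrp1, -0.020 to 1.00 for Myl9, -0.085 to 1.23 for Myocd, -0.0078 to 0.28 for Nexn, -0.074 to 0.47 for Pdlim3, -0.092 to 0.79 for Synpo2, -0.28 to 0.40 for Tagln and -0.10 to 0.61 for Tpm1. The cause of these changes was not tested.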

Other observations

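The 8 markers of bladder lining, pacemaker-like interstitial cells and enteric nerves, of which Hand2 is also in the transcription factor list, summed to 317 and 468 CPM in libraries labelled Ghr deletion, against 441, 401 and 359 CPM in control replicates 1 to 3, and 0 of the 7 tested passed by edgeR (0 at an unadjusted p under 0.05). The 8 seminal vesicle markers took 14.6% and 22.2% of counts in the libraries labelled Ghr deletion, against 37.5%, 15.4% and 25.6% in control replicates 1 to 3.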
